A study of Mus musculus with 14 samples.

Results

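Skin from mice with and without the recombinase that removes Nedd8 from keratinocytes was compared for its response to imiquimod. For each gene, the log2 change from DMSO to imiquimod in Cre-negative skin was subtracted from the same change in knockout skin, and the result is called the difference of responses here. A positive value means that the ratio of imiquimod to DMSO was larger in knockout skin, and a negative value that it was smaller. The comparison takes 10 of the 14 mouse skin libraries, chosen by their genotype label, which are all the libraries with both copies of Nedd8 floxed. Knockout skin (NEDD8fl/fl, K14-CreERT pos) gave 3 libraries with DMSO and 2 with imiquimod, and Cre-negative skin (NEDD8fl/fl, K14-CreERT neg) gave 3 with DMSO and 2 with imiquimod. The other 4 libraries, from wild type C57BL/6J skin, entered the shared estimate of spread and a control comparison. Knockout mice were induced on 5 consecutive days before the start, and no induction is stated for the other genotypes. Aldara, a cream with 5% imiquimod, was applied daily from day 0 to day 7 to the shaved back or the right ear, and the site is not given for each library. No library had the cream base without imiquimod, so a response to imiquimod includes a response to the base. The series' design text and extraction text speak of a NEDD8 inhibitor and of cells, while the labels of these libraries give mouse skin, DMSO and imiquimod. Ages, and which library came from which animal, are not given.

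NEDD8 is a small protein related to ubiquitin that is joined to cullins, the scaffolds of cullin-RING ubiquitin ligases, and switches these ligases on. Their substrates include cell-cycle regulators, the NF-kB inhibitor I-kappa-B and NRF2, the transcription factor of the oxidative stress response. The K14 promoter is active in basal keratinocytes of the epidermis and hair follicle, so the recombinase is not made in most other cells of whole skin, such as fibroblasts, muscle and leukocytes. Imiquimod activates Toll-like receptor 7 and gives mouse skin a psoriasis-like inflammation, in which keratinocytes divide, make the wound keratins and secrete antimicrobial proteins, and neutrophils and T cells that make IL-17 take part.

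The library labels were checked first. Nedd8 itself (chr14:55899720-55909581, minus strand, GRCm39) stood at 359.5, 289.7 and 291 CPM (counts scaled to a common library total) in Cre-negative DMSO skin and at 314 and 461 with imiquimod. Knockout skin had 375, 158 and 147 CPM with DMSO and 308 and 151 with imiquimod, so replicate 1 of each group labelled knockout lay close to the Cre-negative levels, and the other knockout libraries lay below all of them. The genotype difference was -0.47 ± 0.40 (log2 ± SE, adjusted p = 0.4) with DMSO and the difference of responses was -0.29 ± 0.64 (adjusted p = 0.78). Where the 3′ tag lies relative to the loxP sites is not given in the sources used here, and whole skin holds cells without the recombinase. Total counts ran from 5552954 to 34362477 in the 10 libraries, and 18S ribosomal RNA took 3.84% to 19.1% of them. By Xist and genes of the Y chromosome, all 3 knockout DMSO libraries were female and both knockout imiquimod libraries were male, while Cre-negative skin had 2 male and 1 female DMSO libraries and 2 male imiquimod libraries. Sex and treatment therefore cannot be told apart within knockout skin, and a fit with a sex term was run as well. Cre-negative DMSO skin was the only group with both sexes. The sex term therefore rests on its 1 female and 2 male libraries and assumes the same sex effect in knockout skin.

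The response to imiquimod differed between the genotypes for 3785 of 16027 genes tested, or 23.6%, with 2242 genes (14%) higher and 1543 (9.63%) lower in knockout skin. These calls rest on an adjusted p under 0.05, corrected over all genes tested, in edgeR's quasi-likelihood test. The higher calls include sex-linked genes: of 5 tested, 4 were higher (median 8.03), and 0 were called with the sex term. With the sex term 982 genes were higher and 487 lower, without knockout imiquimod replicate 1 the counts were 727 and 447, and without the knockout library highest in Nedd8 under each treatment (KO DMSO 1 and KO imiquimod 1) they were 786 and 446. Of the 3785 genes, 99.9% had the same sign under the sex term. That term takes its sex effect from Cre-negative DMSO skin alone, so the shared sign does not measure a sex effect within knockout skin. Scaling by library size alone moved the median of all genes from 0.11 to 0.84 (log2) and the share of calls that were higher from 59.2% to 87.7%, with 3650 higher and 511 lower. Across the 10 fits that each left out 1 library, 653 of the higher and 425 of the lower calls held every time. The same contrast between genotypes that both lack the recombinase, Cre-negative minus wild type, gave 0 genes at the same threshold, with 1466 at an unadjusted p under 0.05 and 18 higher and 32 lower with DESeq2. In that control no genotype went from all female to all male libraries with imiquimod, and no induction is stated. Its count therefore cannot separate sex, induction and loss of Nedd8 in the 3785 calls.

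**Figure D1:**
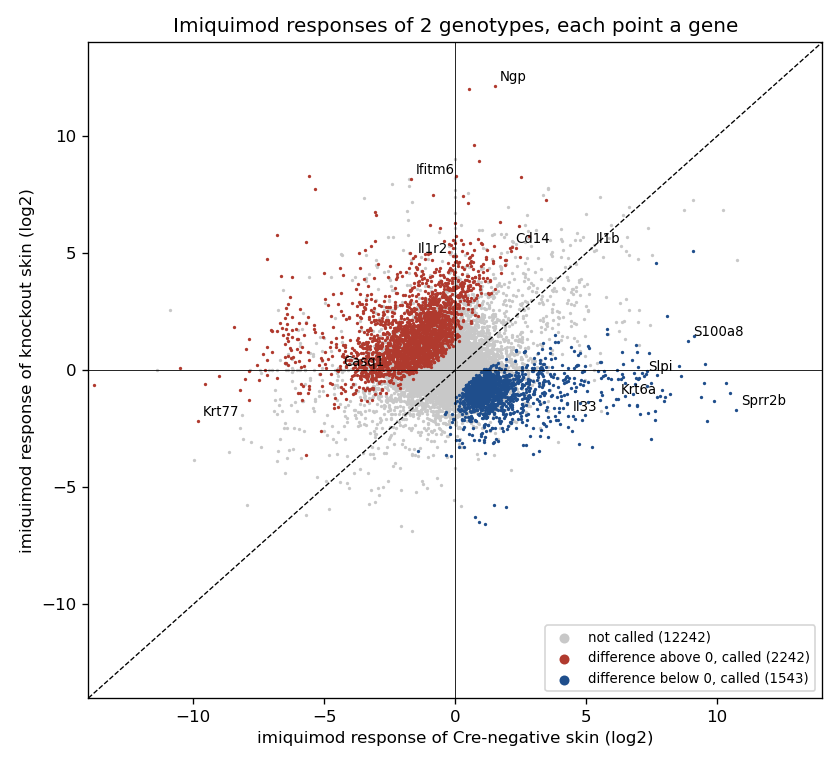
Each point is 1 of the 16027 genes, placed by its log2 response to imiquimod in Cre-negative skin (x axis) and in knockout skin (y axis), with an equal response on the dashed line. Genes with a called difference are coloured, 2242 above the line in red and 1543 below it in blue, and named genes are labelled.

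In Cre-negative skin 1307 genes (8.15%) rose with imiquimod and 1614 (10.1%) fell, and in knockout skin 1372 (8.56%) rose and 404 (2.52%) fell. The knockout counts were 206 and 4 with the sex term, 324 and 15 without knockout imiquimod replicate 1, and 1005 and 258 with a replicate block. With DMSO 4752 genes (29.6%) differed between the genotypes, 2243 (14%) higher and 2509 (15.7%) lower in knockout skin. With imiquimod 1852 genes (11.6%) were higher and 1014 (6.33%) lower.

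Genes with a lower difference were mainly ones that rose with imiquimod in Cre-negative skin. Of the 1543, 789 (51.1%) rose in Cre-negative skin and did not pass in knockout skin, 90 rose in Cre-negative and fell in knockout skin, and 169 fell in knockout skin with no call in Cre-negative skin. With DMSO, 826 of them (53.5%) were higher in knockout than in Cre-negative skin and had no call between the genotypes with imiquimod. A missing call there, with 2 libraries a group, does not show equal levels. The 2242 genes with a higher difference were of other kinds. Of these, 894 (39.9%) fell in Cre-negative skin only, 753 (33.6%) rose in knockout skin only, and 140 fell in Cre-negative and rose in knockout skin. Of the 140 and 90 genes with opposite calls, 6 and 0 were called so with the sex term, 21 and 1 without knockout imiquimod replicate 1, and 16 and 0 without the 2 knockout libraries highest in Nedd8. Over all genes tested 131 rose in both genotypes, of which 14 had a higher and 4 a lower difference, and 43 fell in both, of which 3 had a higher and 1 a lower difference. Across all genes the responses of the genotypes had a Pearson correlation of -0.04 and a Spearman correlation of -0.23, which describes 16027 genes that are not independent of each other. The Cre-negative and knockout responses share no library. Each response and each genotype difference shares its libraries with the difference of responses, so the classes above are partly set by how the genes were chosen.

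**Figure D2:**
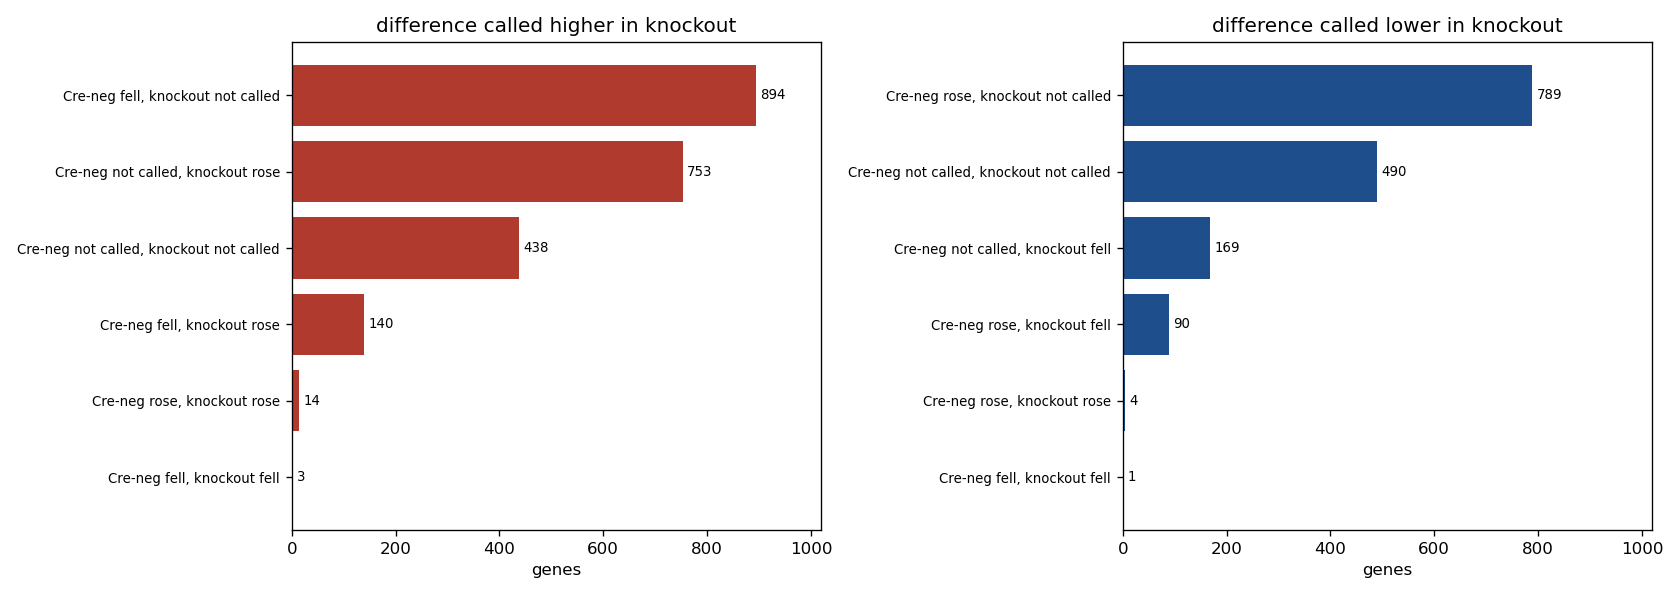
Bars give the number of genes by what the response to imiquimod was in each genotype, for genes called higher (left) and lower (right) in the difference of responses. The longest bars are the 894 genes that fell in Cre-negative skin only and the 789 that rose in Cre-negative skin only.

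Wound keratins and small proline-rich proteins, which hyperproliferative and injured epidermis makes, had the lowest differences of the 42 gene lists examined. Of 22 members tested, 20 were lower and 0 higher in the difference, with a median of -7.31 (log2) against 0.11 over all genes. The list's median response was 6.27 in Cre-negative skin and -1.06 in knockout skin. Krt6a (chr15:101598345-101602742, minus strand), a keratin of wounded epidermis, had 127, 159.7 and 180.0 CPM in Cre-negative DMSO skin and 12039 and 9671 with imiquimod. Knockout skin had 17110.4, 14507 and 19515 CPM of Krt6a with DMSO and 5298 and 9216 with imiquimod. All 5 knockout libraries were far above Cre-negative DMSO skin, and the knockout level with DMSO was above every floxed imiquimod library. The difference for Krt6a was -7.36 ± 0.61 (adjusted p = 6.9e-05), made of 6.13 ± 0.44 in Cre-negative and -1.23 ± 0.40 in knockout skin. Krt6b, a close paralog, and Krt16, a type I keratin that pairs with them, had differences of -9.20 ± 1.03 and -7.43 ± 0.84 (adjusted p = 0.00023 for both).

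Sprr2b (chr3:92223927-92225392, plus strand), a cornified envelope protein of the epidermal differentiation complex, had the lowest fitted value among the small proline-rich genes. It stood at 0.112, 0.109 and 0.291 CPM in Cre-negative DMSO skin, 309 and 268 with imiquimod, 32.6, 29.2 and 40.5 in knockout DMSO skin and 1.14 and 19.7 with imiquimod. Its imiquimod libraries did not overlap between genotypes, and Cre-negative skin was the higher. The difference was -12.44 ± 1.43 (adjusted p = 0.00023), from only 8 reads in the Cre-negative DMSO group. Lce3b, a late cornified envelope gene induced by barrier damage, had a difference of -10.53 ± 1.06 (adjusted p = 0.00013). These families hold near-identical paralogs, so the split of reads among Sprr2 and Lce3 members is uncertain. With the sex term, and without knockout imiquimod replicate 1, 19 members were lower.

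Promoter windows of the wound list were searched for the AP-1 site (TGANTCA on either strand), because AP-1 is a known regulator of the epidermal differentiation complex. Windows of 300 bases around the gene start come from RefSeq's annotation of GRCm38.p6, the older build, and 20 of the list's 25 genes were found there. Of these 20, 9 (45%) held the letters, against 7.93% of the 27025 genes in the table and 5.93% of the genes tested. Over all genes lower in the difference the share was 7.95%. Sprr2b (chr3:92316455-92316754, plus strand) and Sprr2d (chr3:92338890-92339189, plus strand), which lie side by side and had differences of -12.44 and -9.27, are shown because their matches stand at nearly the same place in related promoters. In all, 3 motifs were searched in 6 lists, and the AP-1 letters were also frequent in lists that were higher in the difference. They stood in 6 of 24 type I interferon promoters (25%), 5 of 20 chemokine promoters (25%), 4 of 20 NF-kB promoters (20%) and 3 of 22 interferon gamma promoters (13.6%), and in 0 of 23 IL-17 target promoters. A match describes letters only, and binding was not measured. Capitals mark the AP-1 letters.
Sprr2b: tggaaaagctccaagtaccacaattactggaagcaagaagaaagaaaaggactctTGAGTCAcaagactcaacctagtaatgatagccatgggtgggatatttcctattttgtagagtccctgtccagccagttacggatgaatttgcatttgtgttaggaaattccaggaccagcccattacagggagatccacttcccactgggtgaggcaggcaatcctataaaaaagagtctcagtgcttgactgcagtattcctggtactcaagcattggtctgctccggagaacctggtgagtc
Sprr2d: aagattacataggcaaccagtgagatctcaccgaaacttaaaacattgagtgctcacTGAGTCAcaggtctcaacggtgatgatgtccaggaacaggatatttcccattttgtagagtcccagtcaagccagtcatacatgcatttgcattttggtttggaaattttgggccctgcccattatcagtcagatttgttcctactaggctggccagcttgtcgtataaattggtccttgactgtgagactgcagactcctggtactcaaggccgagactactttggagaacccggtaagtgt

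Keratinocyte proteases and lipid enzymes of the barrier moved the same way, with 18 of 37 lower and 0 higher and a median of -2.02. Klk13, a kallikrein protease of the upper epidermis, stood at 4.86, 3.56 and 6.85 CPM in Cre-negative DMSO skin and rose to 370.0 and 294. In knockout skin it was 194, 85.4 and 238 with DMSO and fell to 49.8 and 72.3. Its direction was thus opposite in the 2 genotypes, and the difference was -7.53 ± 0.69 (adjusted p = 8e-05). Klk6 had a difference of -6.65 ± 0.66 (adjusted p = 0.00013), also rising in Cre-negative and falling in knockout skin. Spink12, a protease inhibitor, had 0 reads in all Cre-negative DMSO libraries and 49.4, 33.6 and 55.9 CPM in knockout DMSO skin, so its ratio of responses was at least 329-fold lower in knockout skin. In the fit with a sex term 13 members of the list were lower, and 12 without knockout imiquimod replicate 1.

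Genes of suprabasal differentiation and the cornified envelope were mixed, with 15 of 50 lower, 2 higher and a median of -1.10. Casp14, the protease that processes filaggrin, was 40.6, 42.7 and 36.1 CPM in Cre-negative DMSO skin and 172 and 81.5 with imiquimod. Knockout skin had 30.3, 13.7 and 29.4 CPM of Casp14 with DMSO and 5.40 and 6.38 with imiquimod. Both knockout imiquimod libraries were the lowest of the 10, and the difference was -3.72 ± 0.58 (adjusted p = 0.0016). Flg and Ivl, which encode filaggrin and involucrin, had differences of -1.92 ± 1.22 (adjusted p = 0.26) and -1.34 ± 0.52 (adjusted p = 0.075). Krt77, a keratin of sweat ducts and interfollicular epidermis, had a higher difference, 7.63 ± 1.20 (adjusted p = 0.0016). Its level was 9128, 16009.8 and 10616 CPM in Cre-negative DMSO skin and at most 14.2 CPM in every other floxed library, so the higher difference came from a fall in Cre-negative skin towards the level that knockout skin already had. Against wild type skin the value for Krt77 was 2.66 with an adjusted p of 0.097. The list's count of lower members was 8 with the sex term and 6 without knockout imiquimod replicate 1.

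Among basal keratinocyte genes, 1 of 18 was lower and 2 were higher, or 16.7% called against 23.6% of all genes. Krt14, the keratin whose promoter drives the recombinase, stood at 2316, 3103 and 1997 CPM in Cre-negative DMSO skin and 11549 and 9708 with imiquimod. Knockout skin had 17633, 12203 and 16801 CPM with DMSO and 4655 and 7710.5 with imiquimod. The direction of the means was opposite between genotypes, and the difference for Krt14 was -3.43 ± 0.57 (adjusted p = 0.002). Its partner Krt5 had a difference of -1.29 ± 0.67 (adjusted p = 0.17), and Krt10, the suprabasal keratin, one of 1.28 ± 1.11 (adjusted p = 0.42). Krt10 was 1863 to 8589 CPM in Cre-negative DMSO skin and 15.4 to 49.2 in all 5 knockout libraries.

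IL-17 targets and antimicrobial genes had 16 of 32 members lower, 1 higher and a median of -3.42. The list's median response was 5.42 in Cre-negative and 1.63 in knockout skin. S100a8, a subunit of calprotectin made by keratinocytes and neutrophils, stood at 37.1, 65.0 and 452 CPM in Cre-negative DMSO skin and 54076 and 121400.0 with imiquimod. In knockout skin S100a8 was 49785, 12884 and 11013 CPM with DMSO and 81713 and 34415 with imiquimod. Knockout DMSO skin was above Cre-negative DMSO skin in every library, and the knockout libraries of the 2 treatments overlapped. The difference was -7.65 ± 1.59 for S100a8 (adjusted p = 0.0057) and -7.66 ± 1.40 for its partner S100a9 (adjusted p = 0.0031). The count of lower members was 11 with the sex term and 14 without knockout imiquimod replicate 1.

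Slpi, a secreted inhibitor of leukocyte proteases, was 1.34, 1.48 and 3.72 CPM in Cre-negative DMSO skin and 284 and 345 with imiquimod. Knockout skin had 2589, 1833 and 1506 CPM of Slpi with DMSO and 1617 and 1675 with imiquimod, all of them above the Cre-negative imiquimod libraries. The difference was -7.45 ± 0.65 (adjusted p = 6.9e-05). Defb3, a beta-defensin, differed in another way. It stood at 0, 0 and 0.510 CPM in Cre-negative DMSO skin, 148 and 253 with imiquimod, 5.86, 15.8 and 4.68 in knockout DMSO skin and 2.59 and 9.65 with imiquimod. Here knockout skin lay below Cre-negative imiquimod skin under both treatments, and the difference was -10.88 ± 1.44 (adjusted p = 0.00052), from 7 reads in the Cre-negative DMSO group.

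The stefin A cluster, cysteine protease inhibitors of keratinocytes and neutrophils, had 7 of 10 members lower, 0 higher and a median of -4.30. Csta3 was 0.559, 0.766 and 6.34 CPM in Cre-negative DMSO skin and 882 and 2856 with imiquimod, and in knockout skin 163, 331 and 228 with DMSO and 162 and 415 with imiquimod. Its knockout libraries overlapped between treatments, while those of Cre-negative skin did not, and the difference was -9.29 ± 1.35 (adjusted p = 0.001). Reads of this tandem cluster can be shared among its copies.

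**Figure D3:**
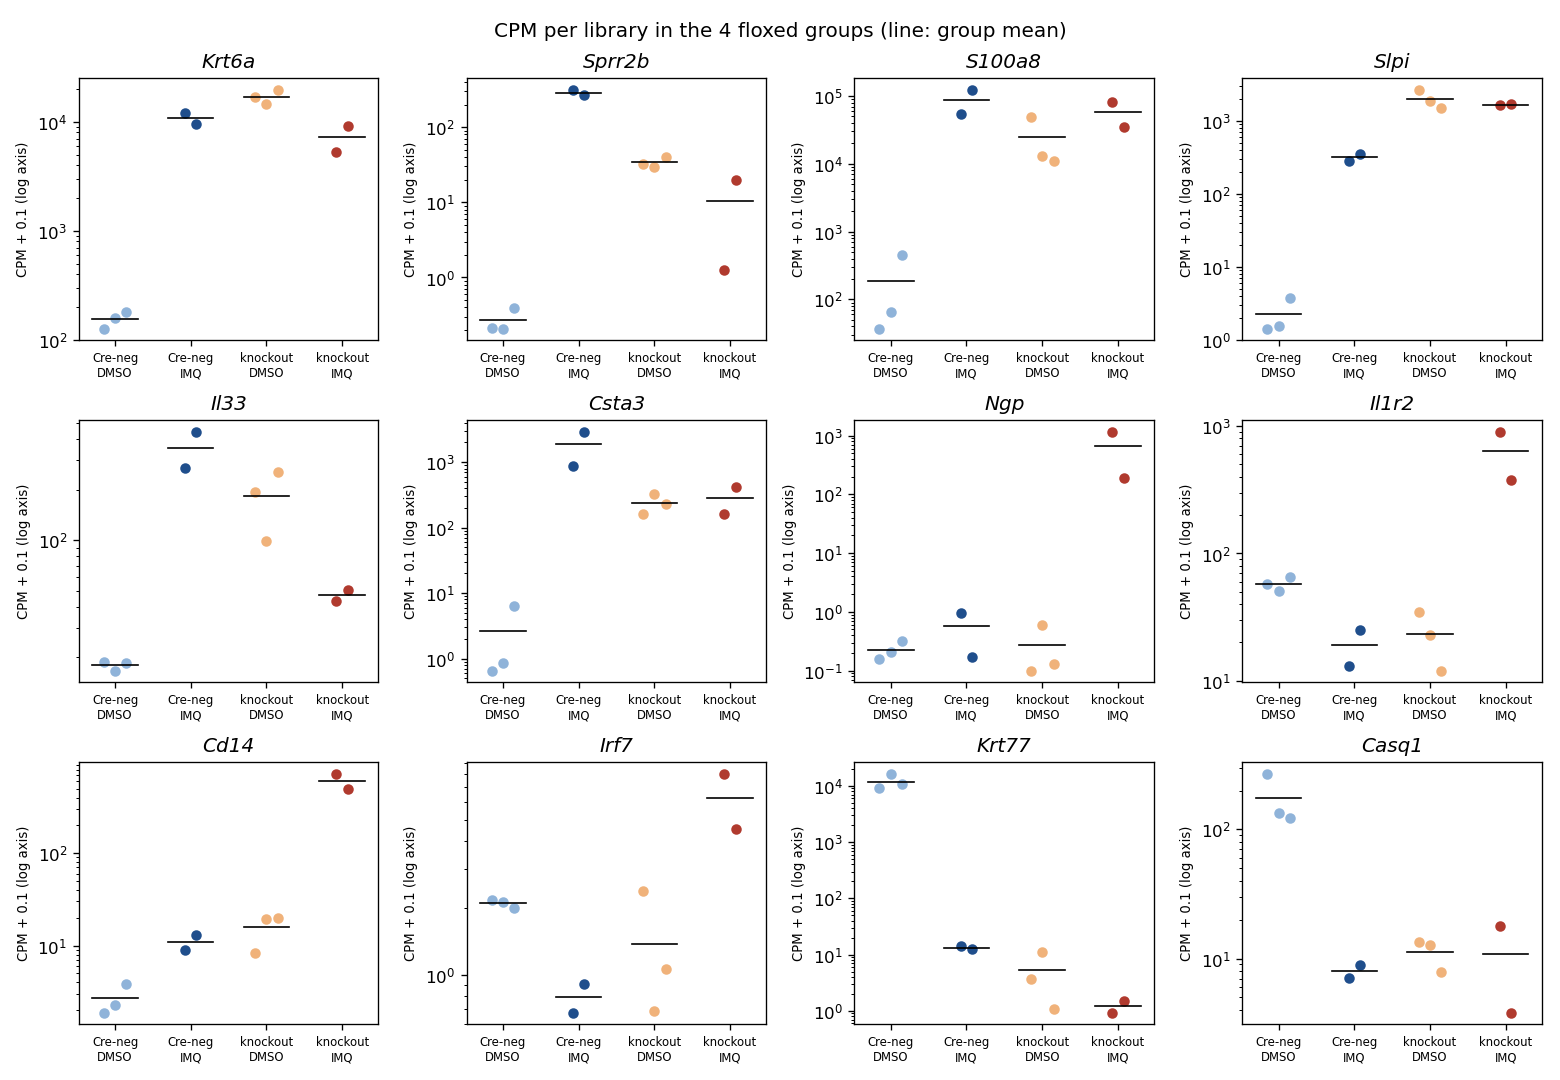
CPM of 12 genes in each of the 10 floxed libraries on log axes, with 0.1 added so that a count of 0 can be drawn and a line at the group mean. Krt6a, S100a8, Slpi and Csta3 were low in Cre-negative DMSO skin only, Ngp, Il1r2 and Cd14 were high in knockout imiquimod skin only, and Krt77 and Casq1 were high in Cre-negative DMSO skin only.

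Alarmins and growth factors released by damaged epidermis had 6 of 22 members lower and 2 higher, with a median of -0.86. Il33, an IL-1 family alarmin, was 18.6, 16.6 and 18.4 CPM in Cre-negative DMSO skin and 268 and 438 with imiquimod. Knockout skin had 193, 98.9 and 255 CPM of Il33 with DMSO and 43.0 and 50.3 with imiquimod. It rose in one genotype and fell in the other, and the difference was -6.27 ± 0.56 (adjusted p = 8e-05). Tslp, an epithelial cytokine of allergic inflammation, had a difference of -5.90 ± 0.85 (adjusted p = 0.001) and was lowest in knockout imiquimod skin, at 0.533 and 0.886 CPM. Hbegf, a ligand of the EGF receptor, stood at 16.4 to 20.7 CPM in Cre-negative DMSO skin and between 256 and 524 CPM in all other floxed libraries, which gave a difference of -4.22 ± 0.49 (adjusted p = 0.00023). Il1rl1, the receptor of IL-33, went the other way: it was 1.15 to 4.23 CPM in every floxed library except the 2 of knockout imiquimod skin, at 133 and 37.7, with a difference of 6.13 ± 0.87 (adjusted p = 0.00093). The lower count was 4 with the sex term and 4 without knockout imiquimod replicate 1.

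The IL-23 and IL-17 cytokine axis had 5 of 23 members higher, 3 lower and a median of 0.07. Il17a, the central cytokine of this model, had 0 reads in Cre-negative DMSO skin, 1.43 and 1.82 CPM with imiquimod, 0, 0 and 0.0282 in knockout DMSO skin and 0 and 0 with imiquimod. Reads of Il17a were thus seen in both Cre-negative imiquimod libraries and neither knockout one, and the call of its difference (adjusted p = 0.036) was lost with the replicate block, with the sex term and with most single libraries left out. Il1b, a cytokine of myeloid cells and keratinocytes, rose in both genotypes, by 5.19 ± 0.52 in Cre-negative and 5.20 ± 0.51 in knockout skin, and the difference was 0.01 (adjusted p = 1). Its level started higher in knockout skin, 29.0 to 103 CPM against 1.86 to 4.15, and reached 2729 and 2225 CPM against 88.2 and 103. Cxcl1, a neutrophil chemokine, had a difference of -3.45 ± 1.49 (adjusted p = 0.11).

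Genes of DNA replication and mitosis had 25 of 50 members lower, 0 higher and a median of -1.89. The list's median response was above 0 in Cre-negative skin and -0.76 in knockout skin, and with DMSO 27 members were already higher in knockout skin. Ccne1, the cyclin of entry into S phase, was 1.85, 2.02 and 1.82 CPM in Cre-negative DMSO skin and 12.1 and 14.7 with imiquimod, and in knockout skin 9.42, 19.1 and 17.5 with DMSO and 6.16 and 11.1 with imiquimod. The knockout groups overlapped and the Cre-negative groups did not, with a difference of -3.66 ± 0.59 (adjusted p = 0.0017). Cdc20, an activator of the anaphase-promoting complex, had a difference of -3.28 ± 0.65 (adjusted p = 0.0045). With the sex term, without knockout imiquimod replicate 1, and without the 2 knockout libraries highest in Nedd8, 5 members of this list were lower.

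Proteasome subunits had 11 of 32 lower and 0 higher with a median of -1.47, and respiratory chain subunits 12 of 38 lower and 0 higher with a median of -1.23. The shares called were 34.4% and 31.6%, against 23.6% of all genes. Psmb5, a catalytic subunit, was 41.3 to 47.2 CPM in Cre-negative DMSO skin and 92.7 and 131 with imiquimod, against 103 to 142 and 77.7 and 77.7 in knockout skin, with a difference of -1.99 ± 0.37 (adjusted p = 0.0032). Cyc1, a subunit of complex III, had a difference of -2.19 ± 0.45 (adjusted p = 0.0051). In each list 1 member was lower without knockout imiquimod replicate 1, and with the sex term the counts were 1 and 4. Scaling by library size alone left 1 proteasome, 1 respiratory chain and 4 DNA replication genes lower.

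NRF2 targets, the antioxidant and detoxifying genes released when a cullin-RING ligase no longer degrades NRF2, had 11 of 44 lower, 2 higher and a median of -0.55. That was 29.5% called, against 23.6% of all genes. With DMSO 31 of the 44 were higher in knockout than in Cre-negative skin, where 14% of all genes were. With imiquimod 24 were higher, where 11.6% of all genes were. Gsta4, a glutathione transferase, stood at 3.52, 2.41 and 2.11 CPM in Cre-negative DMSO skin, 90.0 and 167 with imiquimod, 1020.1, 928 and 850.2 in knockout DMSO skin and 365 and 628 with imiquimod. Every knockout library was above every Cre-negative one, and the difference was -6.49 ± 0.59 (adjusted p = 8e-05). Slc7a11, the cystine transporter, had a difference of -6.93 ± 1.11 (adjusted p = 0.0017) and Akr1b8, an aldo-keto reductase, one of -3.23 ± 0.56 (adjusted p = 0.0025). Nqo1, a quinone reductase, had a difference of -2.52 ± 0.68 (adjusted p = 0.019), a call lost with the sex term and without knockout imiquimod replicate 1. With the sex term 5 members of the list were lower and 0 higher. The median of the list was 0.22 when libraries were scaled by size alone, where the median of all genes was 0.84.

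The NEDD8 pathway and its ligases had shares of called genes near the 23.6% of all genes. Of 21 genes of NEDD8 conjugation and removal, 4 were lower and 0 higher (median -0.85), and none of these 4 calls held in every fit that left out 1 library. Cops6, a subunit of the COP9 signalosome that removes NEDD8 from cullins, was the one with the smallest p-value, with a difference of -1.34 ± 0.35 (adjusted p = 0.016). Among 21 cullins, RING subunits and CAND genes, 3 were higher and 2 lower with a median of -0.30, which turned to 0.44 with scaling by library size alone. Both with the sex term and without knockout imiquimod replicate 1, 0 of the first list and 1 of the second were called. Cand2, a muscle-expressed regulator of cullin assembly, was 7.60, 9.85 and 6.63 CPM in Cre-negative DMSO skin, 0.717 and 0.807 with imiquimod and 1.27 to 2.71 in knockout skin, with a difference of 3.20 ± 0.57 (adjusted p = 0.0028).

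Genes of myeloid cells were on the higher side, the neutrophil list less evenly than the monocyte and macrophage list. In the neutrophil list 9 of 30 were higher and 2 lower, and the median was 0.30. Setting groups of 0 reads to a floor of 3 made it 1.35. The list's median response was 3.50 in Cre-negative and 5.30 in knockout skin, where 18 and 26 members rose. Wfdc21, a secreted protein of neutrophils and epithelia, was 409, 276 and 239 CPM in Cre-negative DMSO skin and fell to 13.3 and 34.2, while in knockout skin it rose from 54.8, 38.6 and 21.7 to 1672 and 763. The difference for Wfdc21 was 8.68 ± 0.89 (adjusted p = 0.00014), and its knockout imiquimod libraries were the highest of the 10. Il1r2, the decoy receptor of IL-1, was 50.6 to 65.3 CPM in Cre-negative DMSO skin, 12.9 and 24.8 with imiquimod, 12.0 to 34.4 in knockout DMSO skin and 894 and 378 with imiquimod. The difference was 6.41 ± 0.78 (adjusted p = 0.00032). Wfdc21 and Il1r2 were lower with imiquimod in Cre-negative skin, where 18 members of the list rose and 1 fell, so they do not stand for the list. Of the neutrophil list 6 were higher and 1 lower with the sex term, and 3 and 2 without knockout imiquimod replicate 1.

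Ngp, neutrophilic granule protein, had 1145 and 187 CPM in knockout imiquimod skin, and at most 0.861 CPM in each of the other 8 floxed libraries. Its difference was 10.62 ± 2.44 (adjusted p = 0.0089), a call lost with the sex term. Ltf, lactoferrin, had 40.7 and 2.92 CPM in knockout imiquimod skin and at most 0.269 elsewhere, and its call was lost with the sex term, with voom and without knockout imiquimod replicate 1. Ly6g and Camp, 2 defining markers that fall outside the rule for named genes and were looked at after their values were seen, stood at 81.3 and 30.4 CPM and at 17.7 and 8.59 CPM in knockout imiquimod skin. In Cre-negative imiquimod skin Ly6g was 0.717 and 0.336 CPM and Camp 0 and 0, and with DMSO Ly6g was 0 in Cre-negative and 0.255 to 1.65 in knockout skin. For Camp the DMSO values were 0 to 0.0729 and 0 to 0.291. Neither passed in the difference (adjusted p = 0.54 for Ly6g and 0.11 for Camp). The summed level of the neutrophil list, which includes stefins that keratinocytes also make, was 6239 to 13456 CPM in knockout and 9287 to 13485 CPM in Cre-negative imiquimod skin. More cells of a type and more RNA per cell cannot be told apart in whole skin.

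Monocyte and macrophage genes had 12 of 29 members higher, 1 lower and a median of 2.05. Msr1, a scavenger receptor, was 4.12 to 8.66 CPM in all DMSO libraries, 7.46 and 11.0 in Cre-negative imiquimod skin and 223 and 61.0 in knockout imiquimod skin, with a difference of 3.93 ± 0.68 (adjusted p = 0.0025). Ifitm6, a myeloid gene of the interferon-induced transmembrane family, was 276 and 65.0 CPM in knockout imiquimod skin and at most 4.52 in the other floxed libraries, with a difference of 9.88 ± 0.93 (adjusted p = 8.9e-05). Ccr2, the chemokine receptor of inflammatory monocytes, had a difference of 3.56 ± 0.77 (adjusted p = 0.0068). The summed level of the list was 3327 and 7522 CPM in knockout imiquimod skin, against 1318 to 2015 in Cre-negative imiquimod and 1013 to 2510 in all 6 DMSO libraries. Without knockout imiquimod replicate 1 only 1 member was higher and the Ccr2 call was lost, while 9 were higher with the sex term.

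Toll-like receptor 7, the receptor of imiquimod, and its pathway had 11 of 23 members higher, 0 lower and a median of 1.31. Tlr7 (chrX:166087925-166113554, minus strand) stood at 3.19, 1.81 and 2.19 CPM in Cre-negative DMSO skin, 1.15 and 2.89 with imiquimod, 0.764, 0.679 and 0.507 in knockout DMSO skin and 6.92 and 4.25 with imiquimod. Knockout skin thus had the lowest and the highest levels, and the difference was 3.37 ± 0.70 (adjusted p = 0.0057). Cd14, a co-receptor on myeloid cells, was 713 and 489 CPM in knockout imiquimod skin and at most 19.9 in the other 8, with a difference of 3.14 ± 0.63 (adjusted p = 0.0049). Genes of NF-kB and its feedback had 10 of 24 higher, 0 lower and a median of 1.48, with Relb, a subunit of the noncanonical pathway, at 2.47 ± 0.52 (adjusted p = 0.0062). Tnf was 0.492 to 2.69 CPM in the other 8 libraries and 32.6 and 23.7 in knockout imiquimod skin, with a difference of 3.84 ± 0.76 (adjusted p = 0.0045) that became 2.60 with an adjusted p of 0.051 against wild type skin. Without knockout imiquimod replicate 1 the counts fell to 3 and 2 members, and with the sex term they were 7 and 7.

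Interferon genes were also on the higher side: 13 of 32 type I interferon response genes and 13 of 25 interferon gamma response and antigen presentation genes were higher, and 0 lower, with medians of 2.09 and 2.08. The type I list had a median response of -0.88 in Cre-negative and 1.07 in knockout skin. For the interferon gamma list these were -0.69 and 1.45. With DMSO 14 of its members were lower and 0 higher in knockout skin, and with imiquimod 5 were higher and 0 lower. Its summed level was 803 to 1300 CPM in knockout and 2775 to 3332 CPM in Cre-negative DMSO skin. With imiquimod the genotypes overlapped, at 1566 to 2599 CPM in knockout and 2208 to 2422 CPM in Cre-negative skin. Irf7, the master regulator of type I interferon, was 2.07, 2.02 and 1.89 CPM in Cre-negative DMSO skin, 0.574 and 0.807 with imiquimod, 2.29, 0.582 and 0.958 in knockout DMSO skin and 7.91 and 4.43 with imiquimod. The knockout imiquimod libraries were the highest of the 10, and the difference was 3.94 ± 0.84 (adjusted p = 0.0064). Trim30a, an interferon-induced regulator of Toll-like receptor signalling, had a difference of 2.97 ± 0.52 (adjusted p = 0.0025), and Cxcl9, a chemokine induced by interferon gamma, one of 6.31 (adjusted p = 0.0016). Not every classical target passed: Isg15, a ubiquitin-like protein induced by interferon and named after its values were seen, had a difference of 2.15 ± 0.77 (adjusted p = 0.059). Without knockout imiquimod replicate 1 the counts were 5 and 4, and with the sex term 6 and 9.

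The core of the interferon-stimulated response element, TTTC followed by any pair of bases and TTTC again, on either strand, was found in 14 of 24 type I list promoters (58.3%) and 9 of 22 interferon gamma list promoters (40.9%), against 3.49% of 27025 genes. Over all genes higher in the difference the share was 4.65%. Lists of interferon targets are partly defined by such elements, so the share describes the lists and not the genotypes. The Trim30a promoter (RefSeq, GRCm38.p6, chr7:104465144-104465443, minus strand, written 5′ to 3′ on the gene's strand) is shown because it holds both the interferon element and, near its end, an AP-1 match. Capitals mark both.
Trim30a: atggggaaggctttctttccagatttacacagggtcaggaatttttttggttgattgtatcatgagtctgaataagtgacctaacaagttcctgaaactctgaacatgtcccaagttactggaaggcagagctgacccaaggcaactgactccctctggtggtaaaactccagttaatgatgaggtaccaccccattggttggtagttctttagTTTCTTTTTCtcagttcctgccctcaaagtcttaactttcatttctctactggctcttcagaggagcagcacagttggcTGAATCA

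Chemokines of leukocyte entry had 9 of 26 members higher, 0 lower and a median of 2.21. Dendritic and Langerhans cell genes had 12 of 20 higher, 0 lower and a median of 2.26, and 8 of these 12 fell in Cre-negative skin. Itgax, the integrin CD11c, was 5.98 to 9.11 CPM in Cre-negative DMSO skin, 3.01 and 4.10 with imiquimod, 1.10 to 2.80 in knockout DMSO skin and 13.1 and 5.05 with imiquimod, with a difference of 3.47 ± 0.69 (adjusted p = 0.0045). Cd74, the invariant chain of MHC class II, fell in Cre-negative skin from 73.3 to 139 CPM down to 18.4 and 15.1, near the 8.06 to 20.4 CPM of the 5 knockout libraries. Its difference was 2.92 ± 0.60 (adjusted p = 0.0055), and 1.70 with an adjusted p of 0.055 against wild type skin. Cd207, langerin, had 0 reads in the knockout DMSO group and 2 in the knockout imiquimod group, against 4.92 to 14.2 CPM in Cre-negative DMSO skin, so no ratio is given (a gene named after its values were seen). Among T cell and NK cell genes 5 of 21 were higher and 3 lower, and Prf1, perforin, was 2.85 to 4.59 CPM in Cre-negative DMSO skin, 1.29 and 1.08 with imiquimod, 0 to 0.113 in knockout DMSO skin and 2.36 and 0.974 with imiquimod (difference 6.13 ± 0.89, adjusted p = 0.001). Without knockout imiquimod replicate 1 the chemokine count was 3 and the dendritic and Langerhans count 4, and with the sex term they were 6 and 5.

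**Figure D4:**
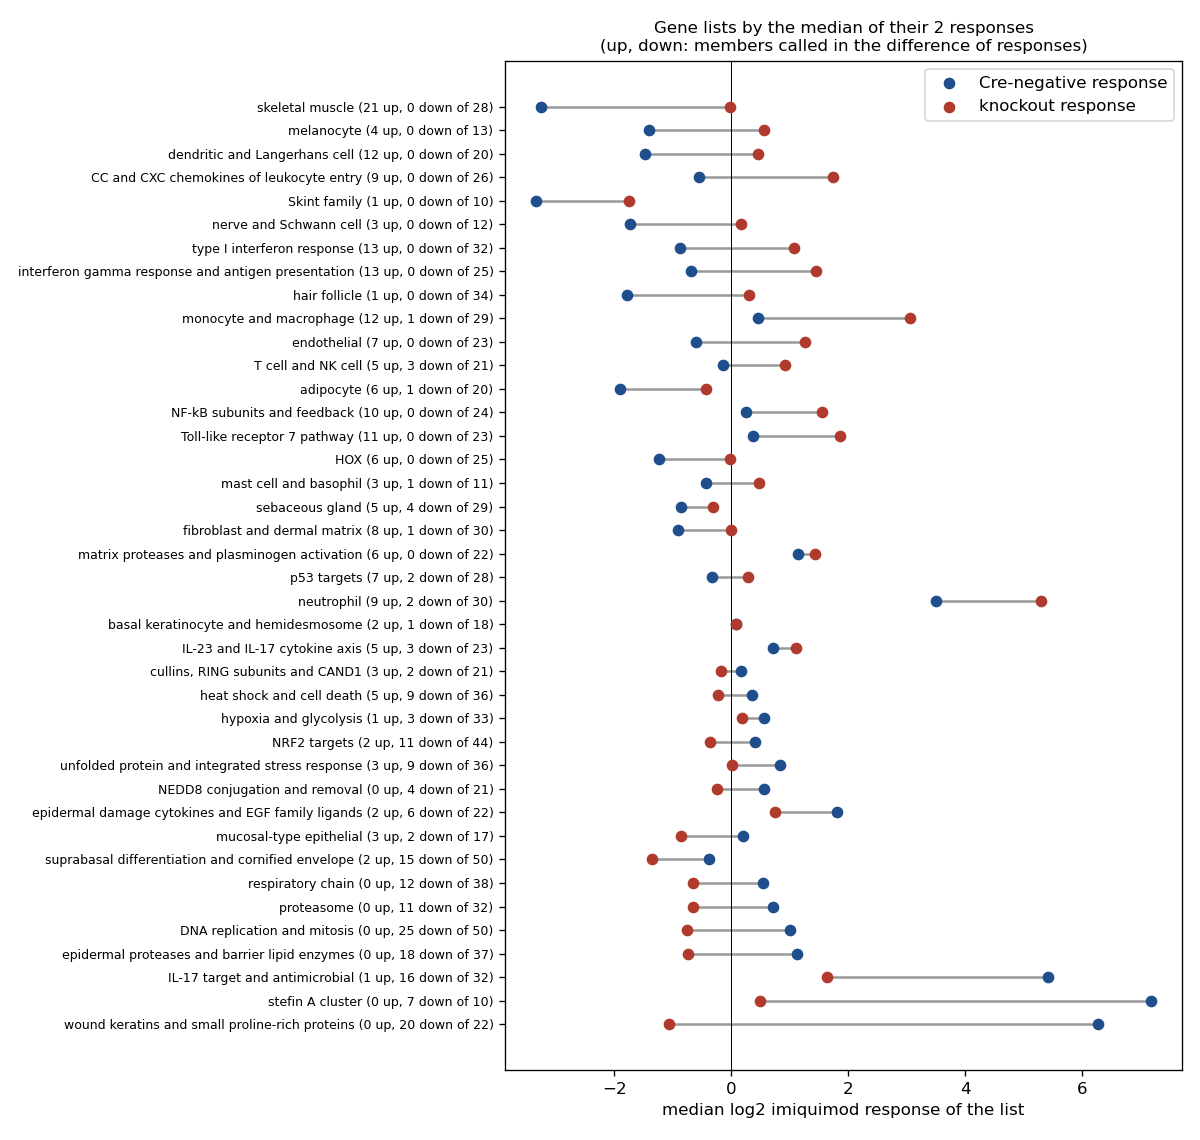
Each row is a gene list, with the median log2 response to imiquimod of its tested members in Cre-negative skin (blue) and knockout skin (red) and the number of members called in the difference in its label. Wound keratins and small proline-rich proteins, at 6.27 and -1.06, are farthest apart, and skeletal muscle, at -3.25 and -0.02, is farthest apart in the other direction. Lists with fewer than 10 tested members and the sex-linked list are not drawn.

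Genes of p53 signalling and cell death had calls on both sides. Of p53 targets 32.1% were called, and of the heat shock and cell death list 38.9%. Over all genes 23.6% were called, 14% higher and 9.63% lower. Of 28 p53 targets 7 were higher and 2 lower, and Fas, a death receptor, was 1.27 to 6.99 CPM in the other 8 floxed libraries and 18.3 and 13.5 in knockout imiquimod skin (difference 4.16 ± 0.69, adjusted p = 0.002). Gadd45a, a DNA damage response gene, was 29.1 and 31.8 CPM there and 3.67 to 6.78 elsewhere (difference 2.78 ± 0.51, adjusted p = 0.003). Cdkn1a, the p21 inhibitor of the cell cycle and a direct substrate of cullin-RING ligases as a protein, had a difference of -0.58 ± 0.46 (adjusted p = 0.38). Bcl2l11, the cell death activator BIM, was 3.63 to 8.16 CPM in the other 8 libraries and 63.8 and 41.4 in knockout imiquimod skin, with a difference of 3.67 ± 0.43 (adjusted p = 0.00025). In the heat shock and cell death list that holds it, 5 of 36 were higher and 9 lower, against 3 and 1 both with the sex term and without knockout imiquimod replicate 1, and 7 and 3 with scaling by library size alone. For p53 targets these settings gave 5, 4 and 11 higher and 0 lower. Pfkfb3, a glycolytic regulator induced by hypoxia and inflammation, had a difference of 5.21 ± 0.62 (adjusted p = 0.00025), the 1 higher member of 33 hypoxia and glycolysis genes, of which 3 were lower. With scaling by library size alone 7 of that list were higher and 0 lower. Its median went from -0.54 to 0.23, where the median of all genes was 0.84.

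Genes of the unfolded protein and integrated stress responses had 9 of 36 lower and 3 higher, or 33.3% called against 23.6% of all genes. The counts were 3 and 1 with the sex term, 4 and 1 without knockout imiquimod replicate 1, and 5 and 6 with scaling by library size alone. Ppp1r15a, the stress-induced phosphatase subunit GADD34, was 15.3 to 31.0 CPM in the other 8 floxed libraries and 82.1 and 89.8 in knockout imiquimod skin, with a difference of 1.83 ± 0.37 (adjusted p = 0.0052). Phgdh, the first enzyme of serine synthesis, had a lower difference, -2.46 ± 0.51 (adjusted p = 0.0055), a call lost when libraries were scaled by size alone. Gsdma, an epidermal gasdermin, was 256 and 287 CPM in Cre-negative imiquimod skin and 27.2 and 58.3 in knockout imiquimod skin, against 87.2 to 129.7 with DMSO in both genotypes, and its difference was -2.76 ± 0.51 (adjusted p = 0.0031). Casp4, an inflammatory caspase, was 41.5 and 20.8 CPM in knockout imiquimod skin and 1.21 to 6.89 elsewhere, with a difference of 3.54 ± 0.63 (adjusted p = 0.0027).

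Some of the most divergent genes had 0 reads in a whole group, so their ratios are lower bounds. Gml, a GPI-anchored protein gene, had 0 reads in Cre-negative DMSO skin and 10.5 and 13.2 CPM with imiquimod, while knockout skin had 8.41, 5.24 and 6.48 with DMSO and 1.98 and 4.87 with imiquimod. The ratio of imiquimod to DMSO for Gml was at least 385-fold lower in knockout skin (adjusted p = 0.00013). Fam3d, a secreted protein gene, had the same pattern at lower levels, with 0 reads in Cre-negative DMSO skin and 7.32 and 5.58 CPM with imiquimod, and a ratio at least 566-fold lower in knockout skin (adjusted p = 0.0014). Fam169b was the reverse, with 0 reads in Cre-negative imiquimod skin, 0.729 to 1.29 CPM with DMSO, 0 to 0.291 in knockout DMSO skin and 10.3 and 4.78 with imiquimod. Its ratio was at least 405-fold higher in knockout skin (adjusted p = 0.00032).

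Il19, an IL-10 family cytokine of psoriatic epidermis, was 0.112, 0.164 and 0.874 CPM in Cre-negative DMSO skin and 42.8 and 87.9 with imiquimod. Knockout skin had 57.6, 20.9 and 21.2 CPM of Il19 with DMSO and 21.1 and 23.8 with imiquimod, so its treatments overlapped, and the difference was -8.03 ± 1.02 (adjusted p = 0.00039). Hdc, which makes histamine in mast cells and in other myeloid cells, rose in both genotypes, to 14.6 and 16.6 CPM in Cre-negative and 1450.3 and 621 in knockout skin. Its difference was 2.38 ± 0.53 (adjusted p = 0.0078), a call lost without knockout imiquimod replicate 1, and 0.66 (adjusted p = 0.39) against wild type skin. Mitf, a regulator of melanocytes and mast cells, fell in Cre-negative skin from 37.1 to 39.1 CPM down to 13.9 and 15.4, and rose in knockout skin from 14.3 to 18.9 up to 47.2 and 26.9, with a difference of 2.58 ± 0.45 (adjusted p = 0.0025).

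Lists of other tissues in the sample moved as well. Skeletal muscle genes had 21 of 28 higher, 0 lower and a median of 3.22, and 20 of these 21 fell in Cre-negative skin with no call in knockout skin. Casq1, the calcium store protein of muscle, was 267, 133 and 123 CPM in Cre-negative DMSO skin, 7.03 and 8.75 with imiquimod, 7.75 to 13.2 in knockout DMSO skin and 17.8 and 3.72 with imiquimod, with a difference of 4.43 ± 0.77 (adjusted p = 0.0026). The summed level of the muscle list was 12763 to 32811 CPM in Cre-negative DMSO skin, 1773 to 2846 with imiquimod, 3198 to 5248 in knockout DMSO skin and 2517 to 7365 with imiquimod. Its part in the other results was not tested. HOX genes, whose set depends on body position, summed to 274 to 412 CPM in Cre-negative DMSO skin and 133 to 164 CPM in the other floxed libraries, and 6 of 25 were higher. With the sex term 6 muscle and 0 HOX genes were higher, and without knockout imiquimod replicate 1 the counts were 7 and 0.

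Adipocyte genes had 6 of 20 members higher and 1 lower, endothelial genes 7 of 23 higher and 0 lower, and fibroblast and dermal matrix genes 8 of 30 higher and 1 lower. The shares called were 35%, 30.4% and 30%, against 23.6% of all genes. Car3, a carbonic anhydrase of fat and muscle, fell in Cre-negative skin from 1569, 849.8 and 952 CPM to 73.3 and 86.4 and stood at 103 to 159.6 in all 5 knockout libraries, with a difference of 3.75 ± 0.57 (adjusted p = 0.0014). Scd3, a desaturase of sebaceous glands, fell from 397, 648 and 267 CPM to 11.0 and 3.97 in Cre-negative skin and was 2.28 to 6.57 in knockout skin (difference 5.32 ± 0.79, adjusted p = 0.0012). Sebaceous genes had calls on both sides, with 5 of 29 higher and 4 lower, or 31.0% called against 23.6% of all genes. Fabp5, the epidermal fatty acid binding protein, was 370.0 to 492 CPM in Cre-negative DMSO skin and 4669.7 and 6342 with imiquimod, and in knockout skin 3097 to 5953 with DMSO and 549 and 1615 with imiquimod, with a difference of -5.78 ± 0.67 (adjusted p = 0.00025). Fn1, fibronectin, was 526 and 232 CPM in knockout imiquimod skin and 19.4 and 49.8 in Cre-negative imiquimod skin, with a difference of 5.05 ± 0.89 (adjusted p = 0.0027). Without knockout imiquimod replicate 1, 2 adipocyte, 0 endothelial and 1 fibroblast gene were higher, and with the sex term 2, 2 and 4.

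The use of wild type skin in place of Cre-negative skin, with the same knockout libraries, was tried after the data were seen. It gave 2414 genes higher and 1935 lower, of which 2679 were the same genes and directions as in the comparison with Cre-negative skin, and 99.6% of its 3785 genes had the same sign. Among lists, 21 wound keratin and small proline-rich genes were lower (median -8.25), 13 IL-17 targets were lower (median -2.92) and 13 type I interferon genes were higher (median 2.08). Other lists changed more. The Toll-like receptor 7 list had 6 higher and 3 lower (median 0.64), and the NF-kB list 6 higher and 2 lower (median 0.79). Dendritic and Langerhans genes had 4 higher, skeletal muscle genes 11 higher, and hypoxia and glycolysis genes 1 higher and 12 lower. Both comparisons share the 5 knockout libraries.

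**Figure D5:**
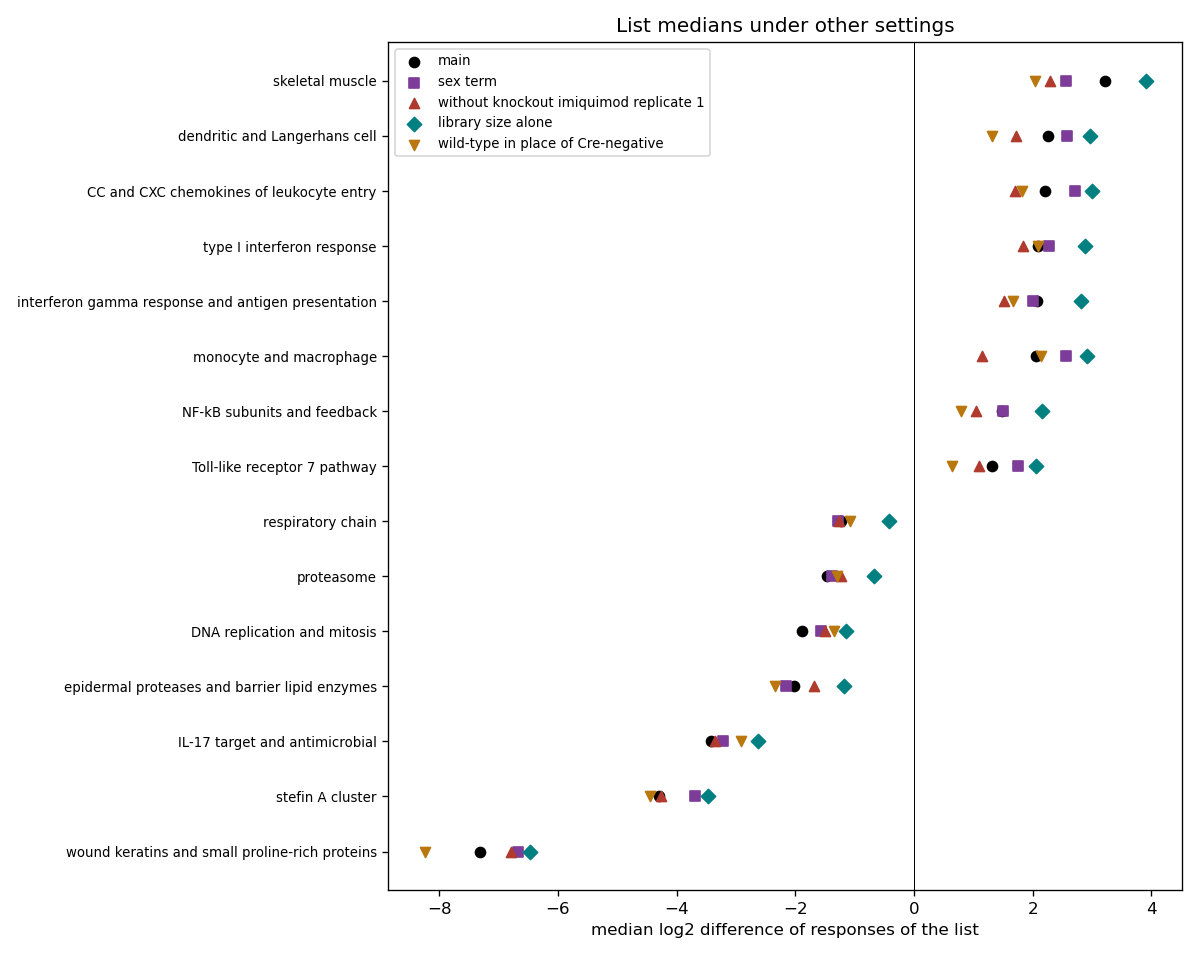
Points give the median log2 difference of responses of 15 lists under the main setting and 4 others, named in the key. Each of the lists drawn keeps its side of 0, from -8.25 for wound keratins against wild type skin to 3.91 for skeletal muscle with scaling by library size alone. Among lists not drawn, the medians of the cullin, NRF2, heat shock and cell death, and hypoxia lists changed side with that scaling.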

How the data were processed

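RNA was measured with a QuantSeq forward kit, which reads a tag near the 3′ end of transcripts, per the labels' protocols. The table the authors deposited holds raw read counts per gene, whole numbers for 56953 genes in 14 libraries, and a gene length column, per the file headers, which entered no calculation. Named in the submitters' processing notes are STAR, featureCounts, DESeq2, GRCm38 and GRCm39, and positions in the table are those of GRCm39. How strand and multiply matching reads were treated is not stated in the labels, which leaves reads of near-identical genes uncertain.

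edgeR 4.0.16 in R 4.3.3 was fitted to all 14 libraries with filterByExpr (16027 genes kept), TMM scaling and a mean for each of 6 groups. The difference of responses and the other comparisons were contrasts of that quasi-likelihood model, with Benjamini-Hochberg adjustment over all genes tested. Fold changes use edgeR's default prior count of 0.125, and ± gives a standard error computed from the log2 difference and the F statistic. CPM is TMM-scaled. Where a group had 0 reads a floor of 3 reads over the group was used and a ratio is a lower bound, which covers counting error only. The labels do not say that libraries came from separate animals, so p-values measure the spread between samples. In simulated counts with 67, 67 and 66 changed genes among 16027, the difference recovered 1.49% of 2-fold, 5.97% of 4-fold and 60.6% of 16-fold changes, with 7 false calls. Sex was taken from Xist and Y-linked genes.

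The comparison and the 42 gene lists (1144 entries, 1065 tested) were chosen with earlier results of these data known. Named genes were the 15 highest and 15 lowest called differences with a group mean of at least 5 CPM, without predicted genes, Xist and Y-linked genes. Added to these were up to 3 called members of each list by p-value, except the sex-linked list, and a fixed set of 16 genes. Other genes given with values are said to be chosen after their values were seen. Alternatives were other scalings and filters, DESeq2 1.42.0, limma 3.58.1 voom, the floxed libraries alone, a replicate block, a sex term, 18S RNA left out, and libraries left out.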

Additional observations from a re-analysis of the deposited data

Results flagged for a closer look

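A test of the difference itself picked out the 2242 genes with a larger and the 1543 genes with a smaller ratio of imiquimod to DMSO in knockout than in Cre-negative skin. Within these, 140 genes fell with imiquimod in Cre-negative skin and rose in knockout skin, and 90 rose in Cre-negative skin and fell in knockout skin, each passing the test in all 3 comparisons. With the sex term 6 of the 140 and 0 of the 90 were called so, and without knockout imiquimod replicate 1 21 and 1. Groups of 2 and 3 libraries are too small for a test of single outlying samples, so none was made.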

How the results depend on the processing

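The 139 named genes with a call kept the sign of their difference in each fit that gave them a value, among 22 other settings and 2 more chosen after the data were seen. Il17a, Ltf, Ngp, S100a8, Scrg1, Sox10 and Tnip3 lacked a value in 1 or 2 of them. Scaling by library size alone gave 3650 genes higher and 511 lower in the difference of responses, 537 higher and 3141 lower in the Cre-negative response and 186 lower in the knockout response. The sex term gave 982 and 487 in the difference, and 206 higher and 4 lower in the knockout response. Without the 2 knockout libraries highest in Nedd8 these 4 counts were 786, 446, 307 and 15, and the control difference had 2 genes lower. The Cre-negative response had 791 genes lower without the 2 libraries highest in 18S RNA. Without a filter on low counts 617 genes were lower in the knockout response, and 103 were higher and 100 lower in the control difference. With DESeq2 these 3 counts were 749, 18 and 32. The cause of these shifts was not tested.

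With 1 library left out at a time, the difference had 727 to 2270 genes higher and 447 to 1475 lower, the Cre-negative response 656 to 1662 higher and 616 to 1810 lower, the knockout response 324 to 1474 higher and 15 to 423 lower, and the control difference 0 higher and 0 to 1 lower. The lowest counts of the difference came without knockout imiquimod replicate 1. A group left with 1 library is assumed to vary like the others. Of 139 named genes with a call, 93 kept it under those of the first 22 settings that gave a value and 86 under all that did.

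With a replicate block the difference had 3623 calls, 3378 of them shared, and the knockout response had 258 genes lower. Deviations of samples with the same number had correlations from -0.32 to 0.32 over 13 pairs. The 3 DMSO pairs of the genotypes (0.26, 0.10 and 0.17) and both knockout pairs (0.32 and 0.12) were above 0.1, among 6 of the 13. In a group of 2 libraries the deviations mirror each other, so the 13 values are not independent. They cannot decide whether the numbers pair samples, and the main fit used no pairing. Depth and 2 or 3 libraries a group limit what can be called.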
